A study of Mus musculus with 24 samples.

Results

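The transcription factor NRF2, made from the gene Nfe2l2, drives a set of genes that protect cells against oxidants, and 10 genes of this system were followed through 24 one-colour microarrays of mouse blastocysts. The genes were taken by name from the array's annotation, with no rule on their measured values. Earlier results of these data were known when they were chosen. The genes were Nfe2l2 and its inhibitor Keap1, and the classical targets Nqo1, Hmox1, Gclc, Gclm, Txnrd1, Srxn1, Gsr and Prdx1. They were represented by 16 of the 56605 probes on the array, and 9 of the 10 were bright enough to be among the 18397 genes tested. Each array was hybridised with RNA from one pool of frozen expanded blastocysts, the embryos that hold a fluid cavity shortly before implantation. The pools belonged to 6 conditions coded HC1 to HC6, with 4 pools each, and held 15 embryos, or 20 in HC6. By its title the study addresses early embryos, the plastics chemical bisphenol A, which has estrogenic activity, and signalling from estrogen receptors at the membrane. The labels used here do not say which treatment, dose or strain a code stands for, nor which code is the control, so the conditions were compared with one another.

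In unstressed cells the KEAP1 protein holds NRF2 in the cytoplasm and hands it to a ubiquitin ligase for destruction. Oxidants and electrophiles modify cysteines of KEAP1, NRF2 then escapes degradation, enters the nucleus with a small MAF partner and binds antioxidant response elements near its targets. This control acts mainly on the protein, so the mRNAs of the targets, and not those of Nfe2l2 and Keap1, are the usual transcript readout of the pathway. Preimplantation embryos in culture are sensitive to oxygen and to peroxide, and glutathione is one of their main defences.

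Antioxidant response elements share the core TGACNNNGC, and some functional elements carry the form TGAGNNNGC, so these letters were searched on both strands of the RefSeq promoter windows of assembly GRCm38.p6. A window runs from 250 bases before a transcription start to 50 bases after it. Windows were matched for 7 of the 10 genes, 9 windows in all: Nfe2l2, Keap1, Nqo1, Gclm, Txnrd1, Srxn1 and Prdx1. The form TGACNNNGC was found for 5 of these 7 genes, and in 12.4% of all 32851 windows and 14% of the 27025 genes with a window. The form TGAGNNNGC was found for 2 of the 7 genes and in 17.6% of all windows; the 2 forms share the same spacing but cannot match at the same bases on one strand. The 5 genes with a match are shown because they hold the letters through which NRF2 is known to act. The 250 bases before the start are printed 5′ to 3′ along the gene's strand, with each match in capitals.
Nfe2l2, chr2:75704664-75704913, minus strand: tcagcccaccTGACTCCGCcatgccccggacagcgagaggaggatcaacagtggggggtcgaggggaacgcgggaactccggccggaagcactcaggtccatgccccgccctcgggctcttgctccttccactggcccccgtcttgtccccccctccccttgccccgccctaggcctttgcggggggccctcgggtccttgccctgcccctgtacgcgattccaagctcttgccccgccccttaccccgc
Gclm, chr3:122245307-122245556, plus strand: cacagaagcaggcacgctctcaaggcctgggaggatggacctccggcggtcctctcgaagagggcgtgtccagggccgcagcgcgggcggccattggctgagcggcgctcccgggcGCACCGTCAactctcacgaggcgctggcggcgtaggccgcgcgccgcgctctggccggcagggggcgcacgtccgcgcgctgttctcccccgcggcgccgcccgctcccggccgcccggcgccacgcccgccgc
Txnrd1, chr10:82858956-82859205, plus strand: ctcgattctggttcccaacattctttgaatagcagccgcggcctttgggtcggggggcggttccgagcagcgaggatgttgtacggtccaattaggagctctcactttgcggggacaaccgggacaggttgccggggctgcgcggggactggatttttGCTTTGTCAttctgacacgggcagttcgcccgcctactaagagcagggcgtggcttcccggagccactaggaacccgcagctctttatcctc
Srxn1, chr2:152105274-152105523, plus strand: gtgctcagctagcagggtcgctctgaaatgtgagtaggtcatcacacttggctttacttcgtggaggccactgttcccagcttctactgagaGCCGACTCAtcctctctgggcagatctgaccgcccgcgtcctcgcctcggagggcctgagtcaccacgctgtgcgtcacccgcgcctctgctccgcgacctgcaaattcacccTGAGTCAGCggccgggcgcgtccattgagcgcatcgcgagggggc
Prdx1, chr4:116685349-116685598, plus strand: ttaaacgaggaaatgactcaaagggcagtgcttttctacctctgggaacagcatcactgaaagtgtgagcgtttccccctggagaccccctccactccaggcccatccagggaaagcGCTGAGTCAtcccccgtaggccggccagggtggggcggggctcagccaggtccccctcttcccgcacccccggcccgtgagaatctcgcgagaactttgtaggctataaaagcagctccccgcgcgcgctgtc

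In Nfe2l2 the match, TGACTCCGC, began 240 bases before the start. In Gclm it lay on the opposite strand, read along the gene as GCACCGTCA, 134 bases before the start. In Txnrd1, which has 3 windows, 1 window held a match, GCTTTGTCA at 92 bases before its start. Srxn1 held 2 matches of the second form before its start, GCCGACTCA at 158 bases and TGAGTCAGC at 45 bases, and 1 of the first form 29 bases after it. In Prdx1 the match GCTGAGTCA began 133 bases before the start, and a match of the second form lay 16 bases after it. The windows of Keap1 and Nqo1 held neither form, which says only that these letters are not in those 300 bases. A match is a run of letters and not a measured binding site, and no binding was measured in these embryos.

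Signals are given as log2 of the processed spot signal minus the 75th percentile of the array, so 0 is the signal that 75% of probes lie below. A probe's brightness also depends on its own sequence, so no gene's level is set against another's. The percentage of spots well above background ran from 38.6% to 49.7%, and the 75th percentile of the signal was lowest in pool 4 of HC5, 47.3, and highest in pool 3 of HC3, 128. Markers of the 3 blastocyst lineages were above background on all arrays. These were 9 of 9 for trophectoderm, 7 of 7 for inner cell mass and epiblast and 5 of 5 for primitive endoderm. Lists for other cells were mixed. Above background on no array were 2 of 5 oocyte genes, 4 of 8 cumulus and granulosa genes and 2 of 5 blood genes. Bright enough to be tested were 3 oocyte, 2 cumulus and granulosa and 2 blood genes. Of the cumulus and granulosa list and of the blood list, 1 gene each was above background on all arrays. Pool 3 of HC6 stood apart in lineage markers, with a trophectoderm score of -0.426 against -0.102 to 0.203 in the other 23 pools; a score is the mean deviation of a list's genes from their 24-pool mean, on the log2 scale. It also had the highest score of a list of genes active at the mouse embryo's 2-cell stage, 5.04. Pool 4 of HC5 had the lowest array signal. Values that rest on either pool are given with and without it. No label says that pools of a condition came from separate parents or days, so p-values measure only the spread between these pools. In pooled embryos, fewer cells of a type and less RNA per cell cannot be told apart.

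**Figure D1:**
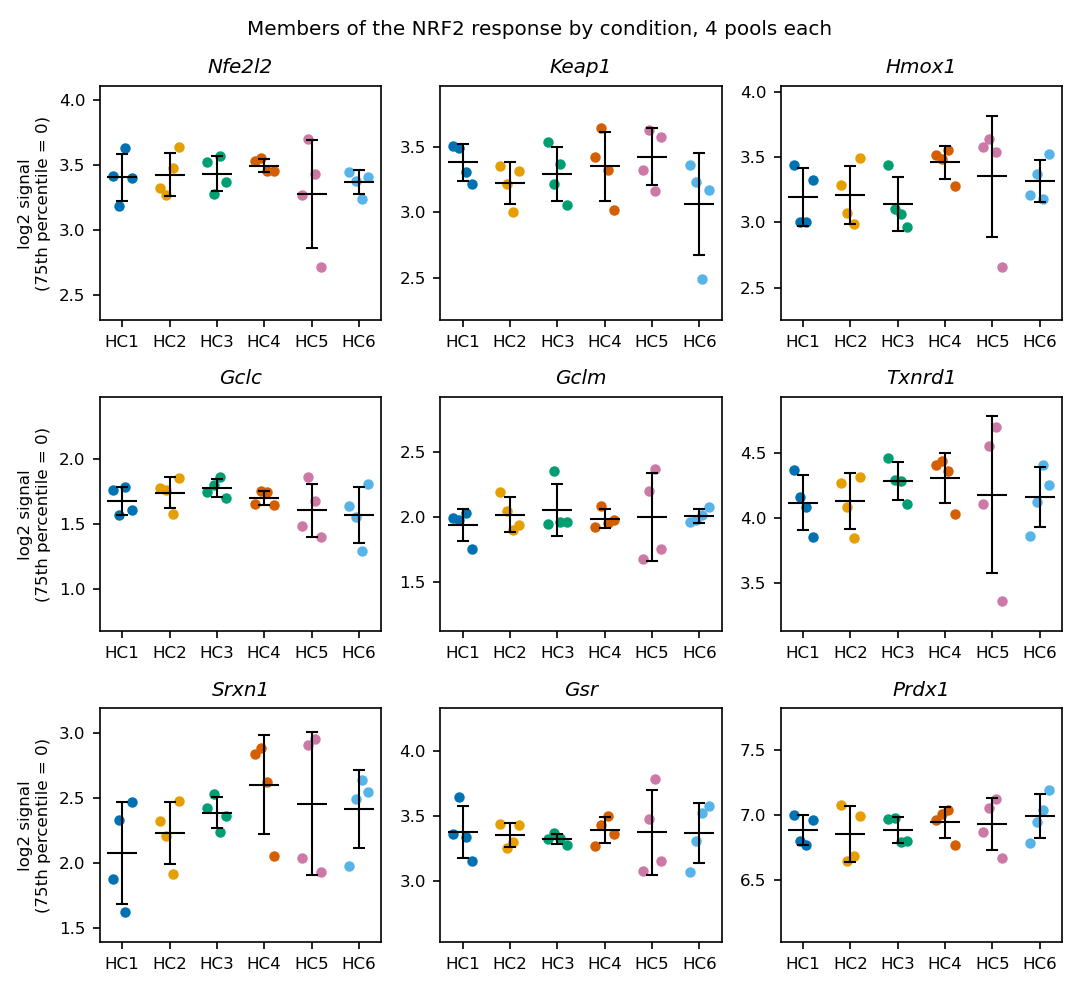
Log2 signal of the 9 measured genes in each of the 24 pools (points, in order of pool number), by condition, with the mean and SD of the 4 pools in black; all panels span the same 1.8 log2 units around different centres. Pools of different conditions overlap for every gene shown, save that the 4 HC4 pools of Nfe2l2 lie just above those of HC6, and the low points of Nfe2l2, Hmox1 and Txnrd1 in HC5 are all pool 4.

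Of the 10 genes 9 gave a signal well above background on all 24 arrays, and the exception was Nqo1, which encodes a quinone reductase and is in most tissues the standard NRF2 reporter. Its single probe, on chromosome 8 at 109912440 to 109912499 in the mm9 coordinates of the array files, was well above background on 0 of 24 arrays. Its processed signal ran from 2.87 to 12.4 with a median of 4.83, whereas the lowest signal called well above background on an array lay between 10.2 and 24.3. On 0 arrays did it exceed that array's own limit. Nqo1 therefore has only an upper bound in every condition, and no fold between conditions can be given. Tested without the brightness filter it gave an unadjusted p of 0.21 and an adjusted p of 0.922 in the limma F-test.

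No difference between conditions passed the threshold for any of the other 9 genes. In limma's F-test over the 6 conditions 0 of the 9 genes had an adjusted p under 0.05, where 0% of the 18397 genes did, and 0 had an unadjusted p under 0.05, where 2.09% of all genes did. With each condition set against the mean of the other 5, 0 of 54 gene and condition differences passed with adjustment, against 0% of all 110382, and 0 passed without it, against 2.89%. Among the 15 pairs of conditions, 0 of 135 differences passed with adjustment, against 0% of all 275955, and 2 passed without it, against 2.84%. The median F-test p was 0.794 over the 9 genes and 0.637 over all genes.

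**Figure D2:**
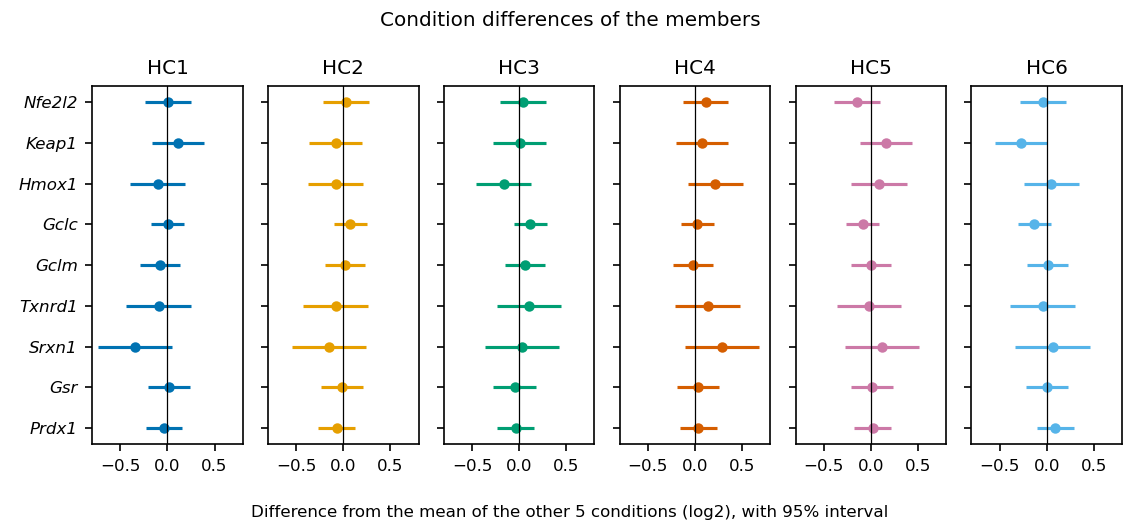
Difference of each condition from the mean of the other 5 (points, log2) with 95% intervals (lines) for the 9 measured genes, one panel per condition. All 54 intervals include 0, and the widest departures are Srxn1 in HC1, -0.34, Srxn1 in HC4, 0.29, and Keap1 in HC6, -0.27.

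Each 95% interval gives a range for the size of a single difference, with no adjustment for the number of differences. For differences of a condition from the other 5, the farthest bound among the 54 was 0.736 on the log2 scale, a 1.67-fold change, and 52 of the 54 intervals lay within 1.5-fold in either direction. For pairs of conditions the farthest bound was 1.03, a 2.05-fold change, and 134 of 135 intervals lay within 2-fold. The median standard error of the members' condition differences was 0.116, against 0.151 over all genes tested. The latter include dimmer genes, whereas the members tested were above background on every array. None of the HC6 differences can be told apart from the larger pools of that condition.

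Nfe2l2, the gene of NRF2 itself, was measured by a probe to NM_010902 on chromosome 2 at 75513771 to 75513830 (mm9). Its log2 signal in HC1 was 3.42, 3.18, 3.63 and 3.40, in HC2 3.32, 3.27, 3.47 and 3.63, and in HC3 3.52, 3.28, 3.56 and 3.37, for pools 1 to 4. It was 3.52, 3.55, 3.45 and 3.45 in HC4, 3.27, 3.69, 3.43 and 2.71 in HC5 and 3.45, 3.38, 3.24 and 3.41 in HC6. Apart from pool 4 of HC5 every pool lay between 3.18 and 3.69, and HC5 held both the lowest and the highest pool. The condition means ran from 3.28 ± 0.41 in HC5 to 3.49 ± 0.05 in HC4 (SD, n = 4), and HC5 differed from the other conditions by -0.15 (SE 0.12, 95% interval -0.39 to 0.10; limma adjusted p = 0.884). Without pool 4 of HC5 that difference turned to 0.04, and without pool 2 it was -0.29. Within the 3 slides of 8 arrays the HC5 difference was -0.15, 0.22 and -0.38. The 4 pools of HC4 lay just above the 4 of HC6 (limma difference 0.13, 95% interval -0.19 to 0.44, adjusted p = 1), the 1 case among the 135 gene and pair combinations without overlap, against 1.56% over all genes. A second Nfe2l2 probe, to the transcript ENSMUST00000152371, was above background on 22 arrays and followed the first only weakly across pools (Pearson's r = 0.237, n = 24).

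Keap1, the sensor and inhibitor, was read by a probe to NM_016679 whose 60 bases spread over 441 bases of genome, on chromosome 9 at 21035292 to 21035732 (mm9). It is shown because it crosses an intron, so it pairs in full only with spliced RNA.
Keap1 probe: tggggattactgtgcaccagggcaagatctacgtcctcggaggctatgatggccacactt

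The Keap1 signal was 3.51, 3.49, 3.31 and 3.22 in HC1, 3.36, 3.22, 3.002 and 3.32 in HC2 and 3.54, 3.21, 3.37 and 3.06 in HC3. It was 3.42, 3.65, 3.32 and 3.02 in HC4, 3.33, 3.64, 3.17 and 3.58 in HC5 and 3.37, 3.23, 2.49 and 3.18 in HC6. The lowest of the 24 values belonged to pool 3 of HC6, the pool with the low trophectoderm score, and the other 3 HC6 pools lay inside the range of the other 20 pools. HC6 differed from the rest by -0.27 (SE 0.13, 95% interval -0.55 to 0.01; unadjusted p = 0.056, limma adjusted p = 0.999), and the difference was -0.08 without pool 3. The HC6 difference was -0.37 without pool 1 of HC6. Within slides it was -0.05, -0.52 and -0.05, the middle value from the slide that holds HC6 pool 3. HC5 minus HC6 was 0.36 (95% interval 0.00145 to 0.72; unadjusted p = 0.0492, adjusted p = 1 by limma), and 0.17 without pool 3 of HC6 (95% interval -0.15 to 0.49). The part of cell makeup in these values was not tested.

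Hmox1 encodes heme oxygenase 1, which breaks down heme and is induced by NRF2 once the repressor BACH1 leaves its enhancers. Its log2 signal, from a probe to NM_010442 on chromosome 8 at 77624406 to 77624466 (mm9), was 3.44, 3.01, 3.001 and 3.32 in HC1, 3.29, 3.08, 2.99 and 3.49 in HC2 and 3.44, 3.10, 3.06 and 2.97 in HC3. It was 3.52, 3.49, 3.56 and 3.28 in HC4, 3.58, 3.64, 3.54 and 2.66 in HC5 and 3.21, 3.37, 3.18 and 3.53 in HC6. In HC4 all 4 pools lay between 3.28 and 3.56, but every other condition also had pools in that range. HC4 differed from the rest by 0.22 (SE 0.14, 95% interval -0.08 to 0.51; limma adjusted p = 0.998), with 0.19, 0.29 and 0.14 within the 3 slides. The difference was 0.17 without pool 4 of HC5 and 0.28 without pool 4 of HC4. It was 0.15 to 0.17 with 3 other normalizations and in the authors' deposited table. With the main scaling the median difference of HC4 over all genes was 0.0457. In HC5, 3 pools between 3.54 and 3.64 were joined by pool 4 at 2.66. A second probe, to the transcript ENSMUST00000160341, was above background on 1 of 24 arrays.

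Srxn1 encodes sulfiredoxin, which repairs overoxidised peroxiredoxins, and it varied most among the 9 genes. Its probe, to NM_029688 on chromosome 2 at 151937009 to 151937068 (mm9), read 1.88, 2.33, 1.63 and 2.47 in HC1, 2.33, 2.21, 1.92 and 2.48 in HC2 and 2.42, 2.53, 2.24 and 2.36 in HC3. It read 2.84, 2.89, 2.63 and 2.06 in HC4, 2.04, 2.90, 2.96 and 1.93 in HC5 and 1.98, 2.49, 2.64 and 2.55 in HC6. HC4 and HC5 each held pools near 2.9 and pools near 2, so the spread inside each of them exceeded the difference between any 2 condition means. The means ordered from HC1, 2.08 ± 0.39, to HC4, 2.60 ± 0.38 (SD, n = 4), with HC2, HC3, HC6 and HC5 between, and neighbours in that order differed by less than the larger of their SDs. HC1 differed from the other conditions by -0.34 (SE 0.19, 95% interval -0.74 to 0.05; unadjusted p = 0.0859, limma adjusted p = 1) and by -0.19 without its pool 3. The HC1 difference was -0.43 without its pool 2 and -0.47 without its pool 4. Within slides the difference was -0.20, -0.90 and 0.04. HC1 minus HC4 was -0.53 (SE 0.24, 95% interval -1.03 to -0.02; unadjusted p = 0.0436, adjusted p = 1 by limma). With any 1 of these 8 pools left out it lay between -0.71 and -0.38.

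Txnrd1 encodes the cytosolic thioredoxin reductase, which uses NADPH to keep thioredoxin reduced. Its probe to NM_001042523 on chromosome 10 at 82360230 to 82360289 (mm9) read 4.37, 4.16, 4.08 and 3.85 in HC1, 4.26, 4.08, 3.84 and 4.32 in HC2 and 4.46, 4.29, 4.28 and 4.11 in HC3. It read 4.40, 4.44, 4.36 and 4.03 in HC4, 4.11, 4.55, 4.70 and 3.36 in HC5 and 3.86, 4.12, 4.41 and 4.25 in HC6. HC5 held the extremes here too, pool 4 at 3.36 and pool 3 at 4.70, a 2.53-fold range, wider than in any other condition. The largest condition difference was in HC4, 0.13 (SE 0.16, 95% interval -0.21 to 0.48; limma adjusted p = 0.998). It was 0.08 without pool 4 of HC5 and 0.23 without pool 4 of HC4. It was 0.07 to 0.08 with 3 other normalizations and in the authors' deposited table. A second probe to the same transcript correlated with the first at r = 0.623 over the 24 pools, and its highest condition mean was in HC3 and not in HC4.

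The remaining 4 genes were steadier. Gclc and Gclm encode the catalytic and modifier subunits of glutamate-cysteine ligase, the rate-limiting enzyme of glutathione synthesis. Gclc (NM_010295, chromosome 9 at 77641296 to 77641355, mm9) ran from 1.29 in HC6 pool 3 to 1.86 in HC3 pool 3, with its largest condition difference in HC6, -0.13 (95% interval -0.31 to 0.05; limma adjusted p = 0.999), or -0.04 without pool 3 and -0.21 without pool 4 of HC6. Gclm (NM_008129, chromosome 3 at 121967737 to 121967796, mm9) ran from 1.68 to 2.36, both in HC5, and its 6 condition means lay between 1.94 and 2.05. Gsr encodes glutathione reductase, which returns oxidised glutathione to its reduced form. Its probe (NM_010344, chromosome 8 at 34808488 to 34808547, mm9) ran from 3.07 to 3.78, with condition means between 3.32 and 3.39 and an F-test p of 0.998 (limma, adjusted p = 1).

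Prdx1 encodes a peroxiredoxin that reduces hydrogen peroxide with electrons from thioredoxin. Its brightest probe (NM_011034, chromosome 4 at 116372029 to 116372088, mm9) ran from 6.65 in HC2 pool 2 to 7.19 in HC6 pool 4, a 1.46-fold range over all 24 pools. Condition means lay between 6.85 ± 0.22 in HC2 and 6.99 ± 0.17 in HC6 (SD, n = 4), and HC6 differed from the rest by 0.09 (95% interval -0.10 to 0.29; limma adjusted p = 0.999). The difference was 0.03 without pool 4 of HC6, 0.16 without its pool 1 and 0.33 when the kept Prdx1 probes were averaged. Within the slides it was -0.13, 0.11 and 0.28. A second probe to the same transcript, which spans 771 bases of genome, followed the first at r = 0.773 and gave the same lowest and highest conditions. Another followed it at r = 0.413, with its lowest mean in HC5 and its highest in HC1. A probe to the transcript ENSMUST00000129315, above background on 14 arrays, did not follow it (r = -0.258). This dim probe is part of the average that gave 0.33. Its HC6 mean, its highest, was -1.76 against -2.74 over the 24 pools.

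The 9 genes differed in how far they spread between pools. Over all 24 pools the SD on the log2 scale was 0.145 for Gclc, 0.149 for Prdx1, 0.163 for Gclm, 0.170 for Gsr and 0.196 for Nfe2l2, all under the median of 0.216 over the 13031 genes above background on every array. It was 0.248 for Keap1, 0.254 for Hmox1, 0.281 for Txnrd1 and 0.358 for Srxn1, above that median. Of those 13031 genes 86.2% had a smaller SD than Srxn1 and 17.7% a smaller one than Gclc. Gclc, Prdx1, Gclm and Gsr were thus in the steadier part of the 9 genes and Srxn1, Txnrd1 and Hmox1 in the more variable part. This is an order of single genes and not of their roles. In the wider list described below the median SD was 0.17 for thioredoxins and peroxiredoxins and 0.254 for glutathione synthesis and use. These 2 medians differ in brightness too. All 16 genes of the former role were above background on every array, but only 26 of the 31 tested genes of the latter.

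Several of the target genes tended to be high and low in the same pools. Over the 36 pairs of the 9 genes, Pearson's r across the 24 pools had a median of 0.442, ran from -0.129 to 0.754 and was above 0.5 in 14 pairs. Over all pairs of the 13031 bright genes the median was 0.07, and 9.33% of pairs were above 0.5. These are descriptions over pools that share slides, array signal and cell makeup, and the members were not compared with other lists. The highest values joined Hmox1 and Prdx1 (0.754; Spearman's rho 0.714), Txnrd1 and Prdx1 (0.713; rho 0.765), Hmox1 and Txnrd1 (0.697), Srxn1 and Prdx1 (0.690) and Txnrd1 and Srxn1 (0.674). Gclm, Gsr and Txnrd1 formed another group of 3, with r of 0.663 between Gclm and Gsr, 0.661 between Txnrd1 and Gsr and 0.618 between Gclm and Txnrd1. Over all 24 pools Keap1 stood outside, with r from -0.129 with Gsr to 0.441 with Gclc. The latter fell to 0.08 without HC6 pool 3 and rose to 0.61 without HC5 pool 4. Leaving out HC5 pool 4 also raised r of Keap1 from 0.0916 to 0.421 with Nfe2l2 and from 0.184 to 0.378 with Hmox1. With Gsr it was then -0.07.

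**Figure D3:**
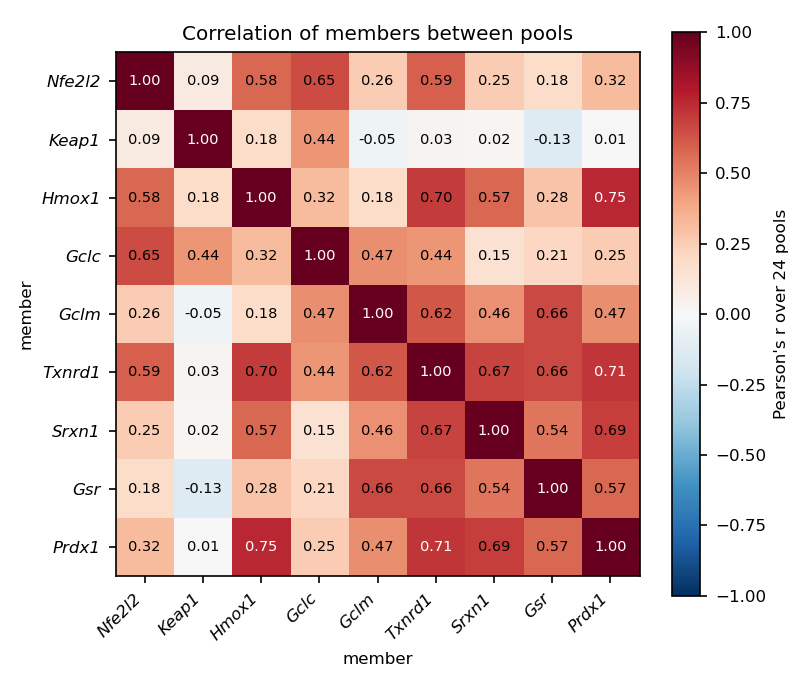
Pearson's r between the 9 measured genes over the 24 pools, from blue (-1) through white (0) to red (1). The block of red from Gclm to Prdx1, with Hmox1 joined to Txnrd1, Srxn1 and Prdx1, contrasts with the pale row of Keap1, from -0.13 to 0.44.

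The covariation was present within conditions and depended in part on single pools and on the scaling. With the condition means taken out the median r was 0.498. It was 0.279, 0.386 and 0.708 within the 3 slides of 8 pools. It was 0.354 without HC5 pool 4, 0.448 without HC6 pool 3 and 0.320 when the 2 pools farthest from the median were left out of each pair. Nfe2l2 and Txnrd1 had r = 0.594 with all pools and 0.237 without HC5 pool 4, and Nfe2l2 and Hmox1 had 0.577 and 0.33. Nfe2l2 and Gclc had 0.65 with all pools and 0.569 without HC5 pool 4. Without that pool Hmox1 and Prdx1 kept 0.717, Txnrd1 and Srxn1 0.684 and Txnrd1 and Prdx1 0.68. Hmox1 and Txnrd1 fell from 0.697 to 0.554, and Gclm and Txnrd1 from 0.618 to 0.563. With 3 other normalizations of the same arrays and in the authors' deposited table the median lay between 0.284 and 0.321, and with the mean of a gene's probes in place of the brightest it was 0.213.

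**Figure D4:**
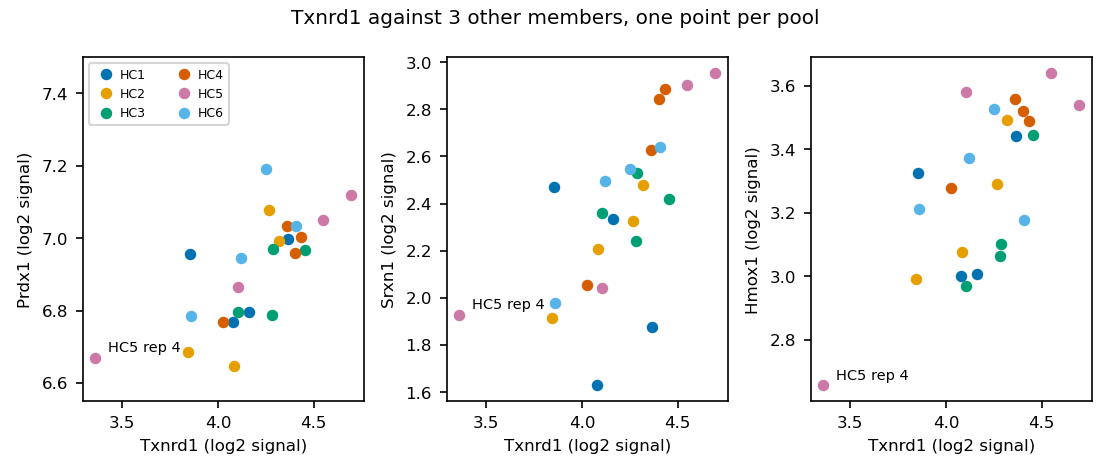
Log2 signal of Txnrd1 (x axis) against Prdx1, Srxn1 and Hmox1 (y axes), one point per pool, coloured by condition, with HC5 replicate 4 marked. The 4 HC5 points hold both the lowest and the highest Txnrd1 value, and r is 0.71, 0.67 and 0.70. Without HC5 replicate 4 r is 0.68, 0.68 and 0.55.

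Some marker lists moved with these genes across pools, and their part in the values was not tested. The trophectoderm score, over 9 genes, had r = 0.734 with Gclc, 0.644 with Keap1 and 0.568 with Nfe2l2; without HC6 pool 3 these were 0.568, 0.303 and 0.643. The inner cell mass and epiblast score, over 7 genes, had r = 0.694 with Prdx1, 0.575 with Srxn1 and 0.553 with Hmox1. The primitive endoderm score, over 5 genes, ran the other way for Gsr, -0.578, and Gclm, -0.552. By rank these were weaker, with Spearman's rho of -0.346 and -0.407. The score's lowest value, -0.791, was in HC5 pool 3, where both genes were at their highest. A heat shock score of 4 genes had r = 0.655 with Prdx1 and 0.577 with Srxn1. The log2 75th percentile of the array, a measure of overall brightness, had r = 0.618 with Nfe2l2 and 0.01 with Srxn1. Without HC5 pool 4 these were 0.455 and -0.127. All of these are over the same 24 pools.

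For the 3 genes of largest SD, genes with a closely similar course over the 24 pools were taken from 12136 bright genes. For Srxn1 they included Dhrs3, a retinal reductase (r = 0.875), and Sh2d3c (0.841). For Txnrd1 they were Pdia6, a disulfide isomerase of the endoplasmic reticulum (0.871), Msantd4 (0.865) and Canx, the chaperone calnexin (0.855). For Hmox1 they were Gng12 (0.904), Kank1 (0.885) and Zcchc2 (0.882). With the 2 farthest pools left out these 8 values lay between 0.703 and 0.856.

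The wider antioxidant system was followed through 110 further genes in 7 roles, of which 101 were tested and 91 had a probe above background on all 24 arrays. In the F-test 0 of the 101 genes passed with adjustment and 0 at an unadjusted p under 0.05, and their median p was 0.632 against 0.637 over all genes. Of the 606 gene and condition differences 0 passed with adjustment, and 16 passed without it, 2.64% against 2.89% of all. By role, these 16 were 4 of 84 for regulators of NRF2, 3 of 186 for glutathione synthesis and use, 2 of 96 for thioredoxins and peroxiredoxins and 1 of 60 for NADPH supply. The remaining 6 were 4 of 54 for heme and iron handling, 1 of 24 for superoxide and hydrogen peroxide and 1 of 102 for quinone and carbonyl detoxification. All 16 thioredoxin and peroxiredoxin genes and all 10 genes of NADPH supply were above background on every array.

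The smallest F-test p of the wider list, 0.0534 (limma adjusted p = 1), belonged to Txnip, an inhibitor of thioredoxin, whose mean was highest in HC1, 3.12 ± 0.05, and lowest in HC4, 2.87 ± 0.10 (SD, n = 4). Maff, a small MAF partner of NRF2, followed with an unadjusted p of 0.0967 (adjusted p = 1 by limma); its HC4 mean of -0.52 had an SD of 1.76, and it was above background on 17 arrays. Bach1, the repressor that competes with NRF2 at shared sites, had an unadjusted p of 0.12 and was lowest in HC5, 2.15 ± 0.38, and highest in HC1, 2.61 ± 0.12. Nnt, which makes mitochondrial NADPH, had an unadjusted p of 0.145 and ran from 0.004 ± 0.057 in HC3 to 0.41 ± 0.12 in HC5. Among genes above background on every array the largest SDs over pools were those of Sesn3, a sestrin (0.681), Slc40a1, the iron exporter ferroportin (0.617), Gpx7, a peroxidase of the endoplasmic reticulum (0.547), and Cbr3, a carbonyl reductase (0.535). The highest pool of Sesn3 was at 2.489 against a 24-pool mean of -0.40, and that of Gpx7 at 1.596 against -0.60. That pool weighs heavily in each of these SDs. None of the 4 genes passed the F-test, and their p ran from 0.18 for Gpx7 to 0.583 for Cbr3.

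**Figure D5:**
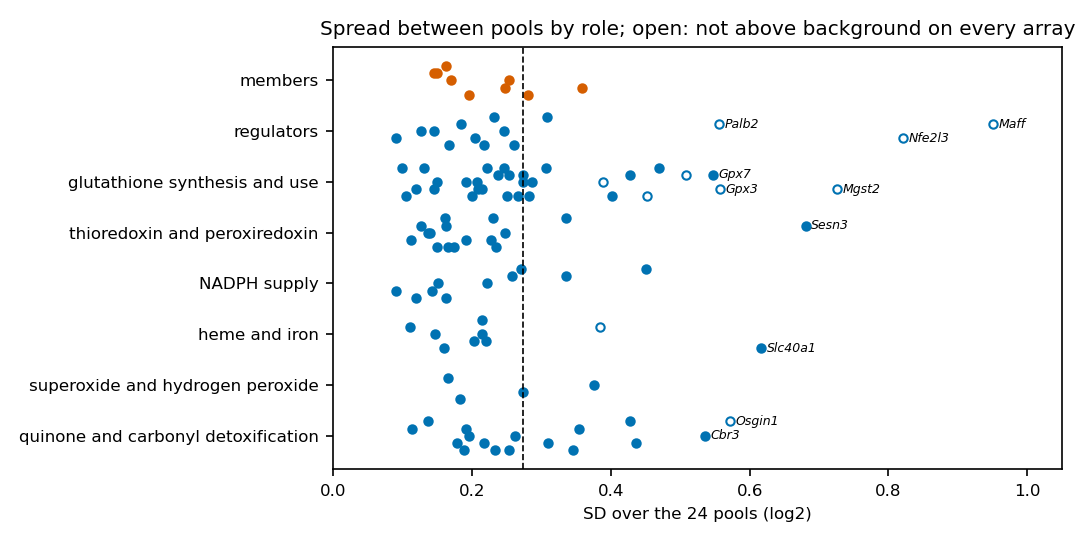
SD over the 24 pools (log2) of the 9 measured genes and of 101 further antioxidant genes by role, with open points for genes not above background on every array and a dashed line at the median of all genes tested, 0.273. The members lie between 0.145 and 0.358, and the named points with the largest SD are spread over several roles.

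Nqo1 was not alone in being dim. In the wider list 8 genes, named here after their values were seen, had no probe above background on more than 2 arrays: Slc7a11, the cystine importer, the glutathione-linked genes Gpx8, Gstt1, Mgst1 and Abcc2, the repressor Bach2, the extracellular superoxide dismutase Sod3 and the glucuronosyltransferase gene Ugt1a6a. Slc7a11 was above background on at most 1 array with any of its 4 probes. For these genes, as for Nqo1, the arrays give a bound and no comparison between conditions.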

How the data were processed

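RNA of each pool was amplified, labelled with Cy3 and hybridised to its own Agilent array, per the labels' protocols. Agilent Feature Extraction (10.10.1.1 in the submitters' processing notes) made the deposited spot intensity values, which per the file headers are background subtracted and not scaled between arrays. The log2 values that the authors deposited as a series table were used as an alternative. Here control and outlier spots were left out, log2 was taken, spots of a probe averaged and the array's 75th percentile subtracted. Probes that cleared the scanner's background flag on 4 or more of 24 arrays, with at least 2 values per condition, were kept, and the brightest stood for its gene. One model with 6 condition means was fitted over all 18397 genes with limma 3.58.1 (R 4.3.3; data.table package, version 1.17.8), with Benjamini-Hochberg adjustment at 0.05: within a condition for contrasts, over genes and pairs for pairs. The code was tested on simulated arrays. Python 3.11.15, numpy 2.4.6, pandas 2.3.3 and matplotlib 3.10.9 did the rest.

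Members and gene lists were chosen with earlier results of these data known. All 10 members are named; of the wider list, the 4 genes of smallest p and the 4 of largest SD; for 3 members, the 3 genes of highest r, of which 1 is not reported here. Alternatives were other normalizations, filters and probe rules, slide or pool number as a block, array weights and leaving out pools. Leaving out both HC5 replicate 4 and HC6 replicate 3, and correlations without either, were chosen after seeing the data.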

Additional observations from a re-analysis of the deposited data

Results flagged for a closer look

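In groups of 4 pools a pool was singled out where its gap to the nearest other pool, as a share of the group's range, passed Dixon's 95% limit, which chance passes in about 1 of 20 groups; 54 groups were examined and 2 passed. Hmox1 in HC5 had pool 4 at 2.66 and the other 3 pools between 3.54 and 3.64, with a gap of 0.896 of the range. Gclm in HC3 had pool 2 at 2.35 and the other 3 pools between 1.95 and 1.96, with a gap of 0.976 of the range.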

How the results depend on the processing

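The counts of members and of wider-list genes past the threshold were 0 under all alternatives run, and no member's F-test passed under any of them. Of the members' largest condition differences, over all slides the sign turned for Nfe2l2 in HC5 only: from -0.15 to 0.0408 without HC5 replicate 4, to 0.0322 without that pool and HC6 replicate 3, and to 0.0152 with array weights. Leaving out 1 pool at a time, it ran from -0.285 to 0.0408. Within single slides, where no test was made, 9 of these differences moved by more than the spread between pools, and the sign was opposite on 1 slide for Nfe2l2 in HC5, Gclc and Prdx1 in HC6, Gclm and Srxn1 in HC1 and Gsr in HC3. Over all genes the authors' table gave 2 calls among condition differences, array weights 2 and no brightness filter 1, none of them a member; leaving out 1 pool gave at most 1 gene by F-test, 2 condition differences and 4 pairs. Dropping the brightness filter shifted a condition's median by up to 0.116.

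Pool numbers were not treated as pairs, since no label ties them together and not every pair of same-numbered pools correlated above 0.1. Same-numbered pools of different conditions had a median r of 0.0503 in their deviations (60 pairs, -0.484 to 0.501), against 0.0113 for other numbers. Yet 14 of 24 pools correlated best with a pool of their own number, where 5 of the 20 pools of other conditions share it. The count is a hint from the data, not the design. All pools numbered 1 were on slide 1 and all pools numbered 4 on slide 3. For these a shared number and a shared slide cannot be told apart. With pool number as a replicate block 0 members were called, and Keap1 in HC6 was -0.27 (limma adjusted p = 0.999). The number of arrays, and for Nqo1 signal near background, limit what could be seen.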
